A study of Mus musculus with 3 samples.

Results

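RNA of mouse pancreatic tumour cells was compared between the animal and the culture dish. The comparison sets cells sorted from tumours in immune-competent C57BL/6 mice, called the WT pool, against the same line grown in culture. It takes in every transcript with a value for that contrast: 17910 RefSeq transcripts, which give 11886 genes once the transcripts of a symbol are averaged, and these are all the genes of the table. The line, mT3-2D-GFP, is a single line derived from a C57BL/6 pancreatic tumour of the KPC kind, a genetically engineered model of this cancer, and it carries green fluorescent protein (GFP). The cultured group was maintained in DMEM with 10% heat-inactivated fetal bovine serum and 2 mM L-glutamine. Tumour cells were recovered by fluorescence-activated sorting, and the RNA of 6 tumours in C57BL/6 hosts was pooled into 1 library. A second pool of 5 tumours came from B6.CB17-Prkdcscid/SzJ (SCID) hosts, which lack mature T and B cells, and it appears below only beside the WT values. All groups thus share the line and its engineered background; host ages, tumour site and sorting gate were not known here.

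Pancreatic cancer cells in a tumour live among macrophages, fibroblasts, vessels and a dense collagen matrix, with uneven oxygen and nutrient supply, whereas cells in serum-fed culture divide with few such limits. Interferon-gamma from lymphocytes is known to switch on antigen presentation and a family of GTPases. Histone genes of the replication-dependent kind are transcribed while DNA is copied, and their messages end in a stem-loop in place of a poly(A) tail. Cell division genes share promoter elements that hold them silent in resting cells.

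Each number below, unless another quantity is named, is a difference, the WT pool minus the cultured line, on the log2 scale of the authors' deposited table and averaged over a gene's transcripts. A value of 1 is 2-fold on that scale. With 1 library a side there was no replicate and no test, so "higher" and "lower" describe these libraries, and the tumours pooled could not be compared among themselves. Over all genes the median was -0.014 with an SD between genes of 0.51, and 5772 genes (48.6%) lay above 0. By 4-fold, 26 genes were higher in the WT pool and 5 were lower. By 2-fold or more, 490 genes (4.12%) were higher and 241 (2.03%) were lower. With such shares, a short list with no gene past 2-fold need not differ from all genes. The genes on either side of the threshold were at 1.00015 and 0.999769 above, and at -1.00052 and -0.999641 below, so the threshold falls in a continuous run of values. Transcripts of the same gene differed with a pooled SD of 0.31, which is a spread of transcripts and not of animals. Sequencing averaged 40000000 reads over the libraries, per the labels, and single depths are unknown. In a bulk library, more cells of a type and more RNA per cell cannot be told apart.

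Of the 490 higher genes 155 were on at least 1 list and 335 on none: 59 were on the immune, interferon or cell type lists, 30 on the matrix lists and 39 on lists of stress, growth-arrest and immediate-early genes, with some genes on several lists. Of the 241 lower genes, 63 (26.1%) were replication-dependent histones, 56 were on the lists for DNA replication, mitosis or DNA repair, and 122 were on none of these; 110 were on no list at all. No gene of the immune, matrix or stress lists was lower by 2-fold, out of 197, 96 and 145 measured.

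**Figure D1:**
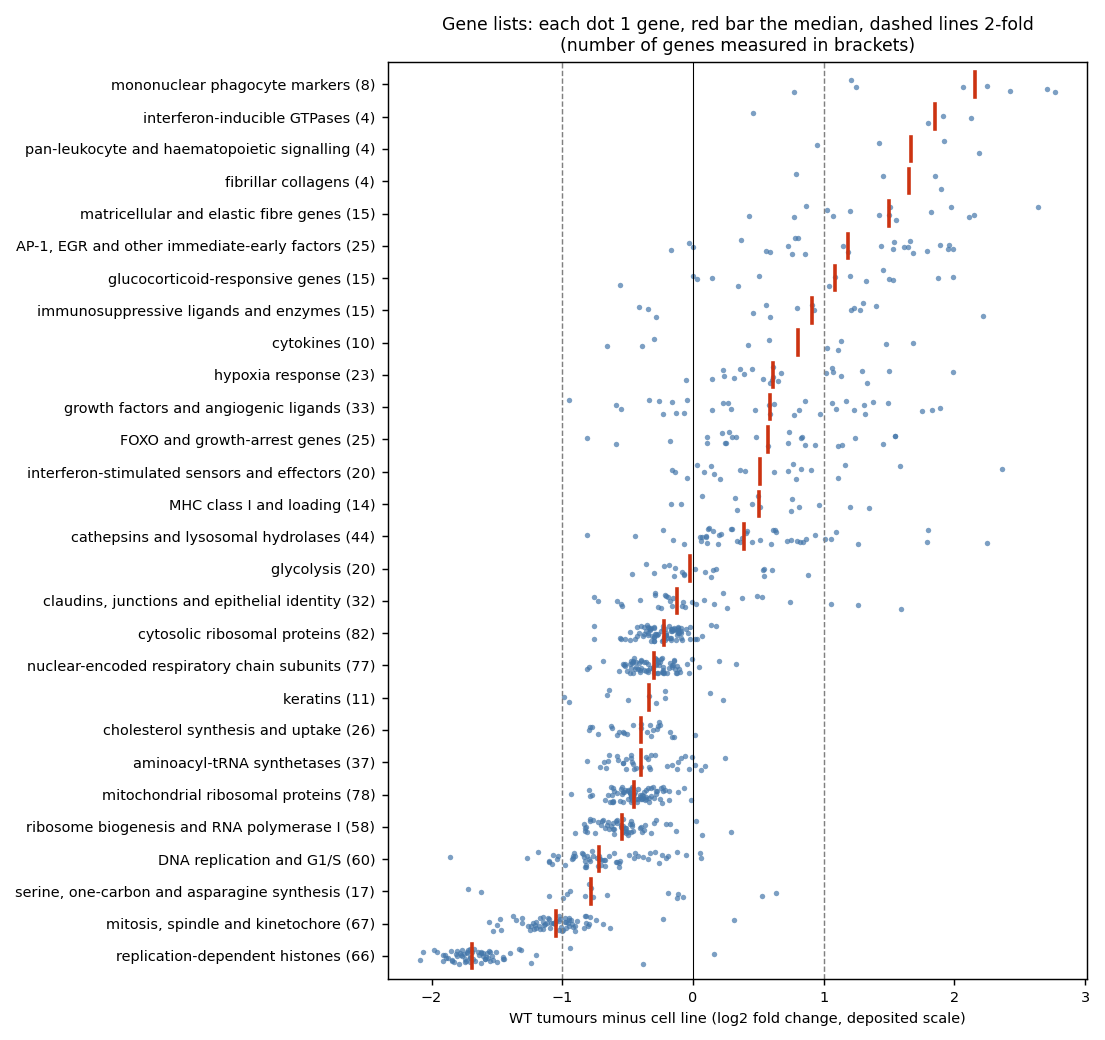
Differences between the WT pool and the cultured line for 28 gene lists, ordered by median; each dot is 1 gene, the red bar is the list median, the x axis is the log2 fold change on the deposited scale and the dashed lines mark 2-fold. Histone genes cluster near -1.69 and the mononuclear phagocyte markers lie between 0.77 and 2.77, while ribosomal and respiratory genes sit in narrow bands below 0.

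Before the tumour cell genes, the markers of other cells need to be set out, since the sorted cells came from tissue. Of 205 entries on 14 marker lists for other cell types, 30 had a row; on the functional lists of fixed names 1150 of 1578 entries had one. Filters on the deposited rows are not stated, and a gene silent in the line could have a row only through tumour reads. Tallies above 0 or past 2-fold, and medians, may thus follow from which genes have rows. This holds for host-cell markers and for any other list measured in part. Among them are the interferon-inducible GTPases (4 of 19 measured), chemokines (6 of 29), cytokines (10 of 27) and matricellular and elastic fibre genes (15 of 32). The 26 mononuclear phagocyte markers gave 8 measured genes, all above 0 and 7 past 2-fold, with a median of 2.16 and a range of 0.77 to 2.77. Apoe, a lipid carrier protein abundant in macrophages and made by other cells too (chromosome 7, 19696244 to 19699188, GRCm38), was at 2.77, Cfp, the complement stabiliser properdin, at 2.71, Fcrls, an Fc receptor-like scavenger gene, at 2.42, and Cd68, a lysosomal glycoprotein of macrophages, at 2.25. Cx3cr1, the fractalkine receptor, was at 2.06, Mertk, a receptor for dying cells, at 1.24, Cd14, a co-receptor for bacterial lipid, at 1.21 and Mrc1, the mannose receptor, at 0.77. In the SCID pool against the line the same 8 genes had a median of 0.62; both contrasts share the cell line library. The remaining 18 of these markers, Csf1r, Adgre1, Itgam and the C1q genes among them, had no row, nor did Ptprc, which encodes the leukocyte antigen CD45. A missing row does not show that a gene was silent.

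Fibroblast and endothelial markers were measured thinly. Of 20 fibroblast markers 4 had values, at 0.71 to 1.90 with a median of 1.30: S100a4 at 0.71, Ly6c1 at 1.04, Has1, a hyaluronan synthase, at 1.55, and Col1a1, a chain of type I collagen, at 1.90. Of 16 endothelial markers 4 had values, from 0.93 to 1.66 with a median of 1.23; the receptors for vascular endothelial growth factor Flt1 and Kdr were at 1.66 and 1.09, and Plvap, a protein of vessel fenestrae, at 1.37. No neutrophil marker was measured out of 14. Foxp3 (0.09) and Tcf7 (0.35) were the T cell markers with a row out of 21, Eomes (-0.63) the NK cell marker out of 12, Sdc1 (0.44) the B and plasma cell marker out of 12, Zbtb46 (0.51) the dendritic cell marker out of 12 and Mcpt8 (1.00) the mast cell and basophil marker out of 9. The part of host cells in the immune, matrix and vessel genes described next was not tested.

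Several genes of blood-cell signalling stood high in the WT pool. Of the 20 pan-leukocyte genes listed, 4 were measured: Cd53, a leukocyte tetraspanin, at 2.19, the adaptors Dok2 and Dok3 at 1.92 and 1.42, and Ptpn6, the phosphatase SHP-1, at 0.95. Fermt3, the kindlin of blood cells, was at 2.20, Csf2ra, the receptor chain for GM-CSF, at 2.06, and Tlr2, a receptor for bacterial lipoproteins, at 2.17. Unc93b1, which escorts toll-like receptors to endosomes, was at 1.87. The 14 measured toll-like receptor and adaptor genes had a median of 0.31, and 3 passed 2-fold, these and Cd14; Tlr4 was at 0.24, the adaptor Myd88 at 0.31 and the kinase Irak1 at -0.34. In the SCID pool against the line the values were smaller, with Cd53 at 1.42, Dok2 at 0.37, Fermt3 at 0.72, Csf2ra at 0.75, Tlr2 at 0.77 and Unc93b1 at 0.62. Of 18 genes of Fc receptor and ITAM signalling 7 were measured and all were above 0, and Plcg2 (1.49) and Pik3ap1 (1.06) passed 2-fold. The kinases Syk and Lyn were at 0.80 and 0.82. Of 11 myeloid transcription factors 5 passed 2-fold: Nr4a1 at 1.53, Cebpa at 1.35, Cebpd at 1.32, Maf at 1.25 and Klf4 at 1.15. Pparg (-0.60) and Bhlhe41 (-0.31) were below 0. For the SCID pool against the line, Nr4a1, Cebpd and Klf4 were at 1.64, 1.09 and 1.14, and Cebpa and Maf at 0.74 and 0.61. Arg1, arginase, was at 2.22, and Rassf2, a RAS-association domain gene, at 2.22.

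Antigen presentation and interferon genes were higher in part, and the 4 measured interferon-inducible GTPases had a median of 1.85. Igtp, Irgm2 and Gbp9, interferon-inducible GTPases that act on the vacuoles of intracellular parasites, were at 2.13, 1.91 and 1.80; Irgm1, a regulator of the same family, was at 0.46. Of 20 measured sensors and effectors 17 were above 0 and 4 passed 2-fold: Parp14 and Parp12, mono-ADP-ribosyltransferases, at 2.36 and 1.59, Ifih1, the RNA sensor MDA5, at 1.16, and Ifit3 at 1.11. Irf1, an interferon-induced transcription factor, was at 1.00, just under the threshold; the 29 measured receptor, JAK, STAT and IRF genes had a median of 0.27. Among 14 class I genes the light chain B2m (1.35) and the peptide-loading chaperone Tapbp (1.20) passed 2-fold. The heavy chains H2-T23, H2-D1, H2-Q1 and H2-K1 were at 0.96, 0.81, 0.76 and 0.75, and in the SCID pool against the line at 0.43, -0.29, -0.22 and -0.46. The general chaperones Calr, Canx and Pdia3 were at -0.17, -0.09 and 0.07. The heavy chain genes are alike in sequence, so how reads were divided among them is uncertain. For class II, only H2-DMb1, a subunit of the peptide exchanger, at 2.20 and Ifi30, a lysosomal thiol reductase, at 0.80 had values. The 5 measured immunoproteasome genes had a median of 0.12, and none passed 2-fold, where 4.12% of all genes were higher.

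The promoters of the GTPase genes farthest from 0 are shown because they hold, close together, both letter patterns linked to interferon. The patterns searched on both strands were the core of the interferon-stimulated response element, which is a pair of GAAA runs with 2 free bases between, and TTCNNNGAA, the gamma-activated site. Sequences are the 150 bases before the annotated start from RefSeq promoters, build GRCm38.p6, with matches in capitals. Igtp is at chr11:58199406-58199555 and Irgm2 at chr11:58214827-58214976, both on the plus strand.
Igtp: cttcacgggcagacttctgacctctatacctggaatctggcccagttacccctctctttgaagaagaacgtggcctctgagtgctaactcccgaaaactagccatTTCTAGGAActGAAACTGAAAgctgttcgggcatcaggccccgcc
Irgm2: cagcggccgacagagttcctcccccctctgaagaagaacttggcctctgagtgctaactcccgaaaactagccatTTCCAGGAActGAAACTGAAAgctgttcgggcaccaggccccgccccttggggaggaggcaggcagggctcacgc
In the full 300-base windows, from 250 bases before to 50 after the start, the response element core was present in 3 of 3 GTPase genes with a promoter, 7 of 17 sensors and effectors (41.2%) and 4 of 11 class I genes (36.4%), against 3.38% of the 9511 genes with a promoter. Sensors and effectors with the pattern had a median of 0.79 and those without it 0.26. The 3 GTPase genes were Igtp, Irgm2 and Irgm1, so the core was also in Irgm1, at 0.46, and Gbp9 had no promoter here. TTCNNNGAA was in 2 of the 3 GTPase genes, not in Irgm1, and in 7.99% of all. A match is a run of letters and not a bound site.

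Ligands, cytokines and their feedback genes were higher in part. Ccl9, a chemokine made by myeloid cells, was at 2.60 and Cxcl5, a neutrophil attractant of epithelium, at 1.27; the 6 measured chemokines had a median of 0.50, or 0.12 without Ccl9. Of 10 cytokines 5 passed 2-fold: Tnf at 1.68, the growth factors of myeloid cells Csf2 and Csf1 at 1.48 and 1.13, Lif at 1.11 and Spp1, osteopontin, at 1.02. Of 18 NF-kB subunits and feedback genes 16 were above 0 with a median of 0.46, and 3 passed 2-fold. Vcam1, an adhesion molecule, was at 1.74, and Nfkbia and Nfkbie, which hold NF-kB in the cytoplasm and are its targets, were at 1.24 and 1.11, the last a mean of transcripts at 0.41 and 1.80. Genes whose products restrain immune cells had a median of 0.91 over 15 measured, with 6 past 2-fold: besides Arg1, Nt5e, which makes adenosine, was at 1.40, Ptges, of prostaglandin E2 synthesis, at 1.30, Cd274, the checkpoint ligand PD-L1, at 1.28, and Tgfb1 and Tgfb3 at 1.23 and 1.21. In the SCID pool against the line, Cd274 was at 0.41 and Arg1 at 0.72, while Nt5e was at 1.23 and Ptges at 1.25. The complement list had a median of 0.68 over 6 genes, or 0.35 without Cfp, with C3ar1, the C3a receptor, at 1.20 and C1ra at 1.01.

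Matrix genes were higher in part. Of 32 matricellular and elastic fibre genes 15 were measured. All 15 were above 0 and 12 passed 2-fold, with a median of 1.497, which may follow in part from which genes have rows. Emilin2, an elastic fibre glycoprotein, was at 2.64, Tnc, tenascin C, at 2.15, Thbs1, thrombospondin, at 2.11, Has2, a hyaluronan synthase, at 1.97 and Fn1, fibronectin, at 1.82; latent TGF-beta binding proteins Ltbp1 and Ltbp4 were at 1.497 and 1.51. In the SCID pool against the line this list also had a median of 1.497, though Emilin2 was at 1.30 there. Of 4 fibrillar collagens 3 passed 2-fold, and of 12 other collagens 5. Col1a1 and Col5a1 of fibrils were at 1.90 and 1.85 and Col6a3 and Col6a1 of microfibrils at 1.85 and 1.46, whereas Col4a1 and Col4a2, the common chains of basement membrane, were at -0.32 and -0.33. Serpinh1, the chaperone for procollagen, was at 1.94 and Bmp1, which cleaves it, at 1.23. After a trend in GC content and transcript length over all transcripts was removed, the fibrillar collagen median went from 1.65 to 1.20 and the matricellular one to 1.14, Col7a1 went from 1.32 to 0.73, and Col27a1 from 1.45 to 0.99, under 2-fold. The basement membrane list, at 0.24 over 14 genes, was at -0.078 after it; its highest member was Lama3, an epithelial laminin chain, at 2.11.

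Proteases that remodel matrix had 5 of 20 measured genes past 2-fold and 19 above 0, led by Mmp19 at 2.03 and the ADAMTS proteases Adamts1 and Adamts4 at 1.75 and 1.52; Mmp15 was at 1.11, or 0.77 after the GC and length trend was removed. Among 13 integrins only Itga5, the fibronectin receptor chain, passed 2-fold at 1.53. Growth factors and angiogenic ligands had 11 of 33 genes past 2-fold, with Igfbp4 at 1.89, Sema7a at 1.75 and Pdgfa at 1.49. Notch4, a receptor best known from vessels, was at 2.04, and the Notch ligand Dll1 at 1.70. TGF-beta ligands, receptors and targets had a median of 0.38 over 21 genes; Inhba, an activin subunit, was at 1.48 while the BMP-responsive genes Id1, Id3 and Smad6 were at -0.64, -0.67 and -0.71. The 20 Hippo-YAP targets had a median of -0.19, with Gadd45b (1.11) and Ctgf (1.01) past 2-fold.

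**Figure D2:**
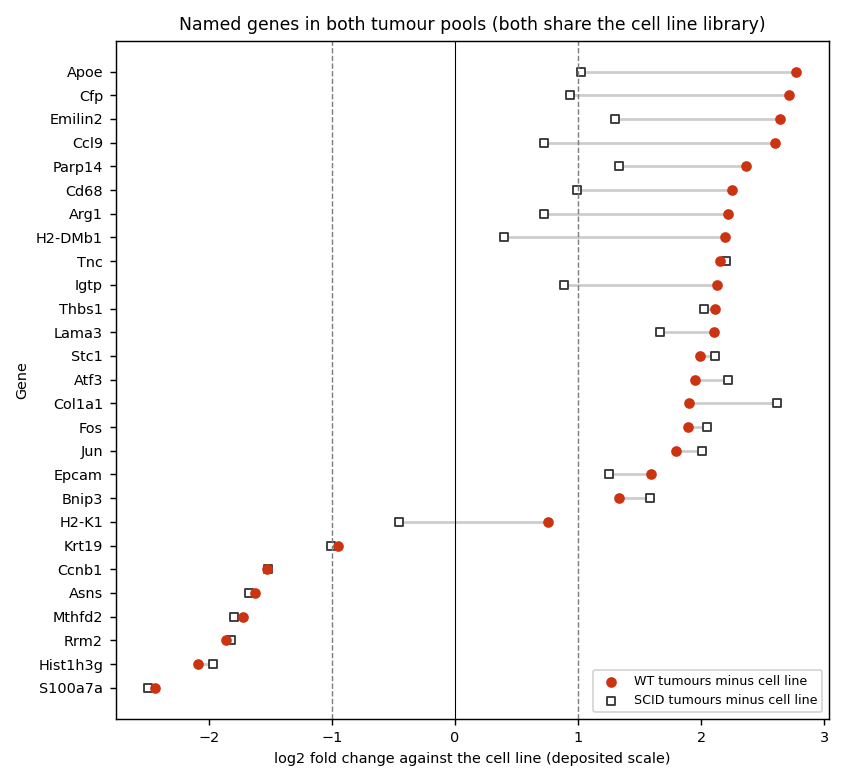
Differences of 27 genes against the cultured line for the WT pool (filled circles) and the SCID pool (open squares), on the deposited log2 scale with dashed lines at 2-fold. Both contrasts use the same cell line library; for Apoe the points are at 2.77 and 1.02, for Col1a1 at 1.90 and 2.61, and for H2-K1 they lie on opposite sides of 0.

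Most immediate-early genes were higher. Of 25 measured AP-1, EGR and related factors 23 were above 0 and 14 passed 2-fold, with a median of 1.19. Rgs2, a brake on G-protein signalling, was at 1.99, the AP-1 subunits Fosb, Fos and Jun at 1.96, 1.89 and 1.79, and Atf3, a stress-induced factor, at 1.95; Myc (-0.17) and Fosl1 (-0.03) were the members below 0. Dusp1, a phosphatase that shuts down MAP kinases, was at 1.87, although the 27 genes of ERK feedback had a median of 0.35. The 36 heat shock and DnaJ genes had a median of -0.15, with 20 below 0 and 4 past 2-fold. Inducible HSP70 genes Hspa1a and Hspa1b, near-identical copies whose reads cannot be assigned with certainty, were at 2.04 and 1.80, while the constitutive mitochondrial chaperone Hspd1 was at -0.91. The tumour cells went through tissue and a sorter before lysis and, as far as the labels go, cultured cells did not. Handling and growth in the animal cannot be told apart for these genes or for any other gene of this contrast. That includes the cytokine, NF-kB, glucocorticoid-responsive and growth-arrest genes.

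Hormone, arrest and oxygen genes were higher within the same range. Of 15 glucocorticoid-responsive genes 9 passed 2-fold with a median of 1.09. The 9 include Rgs2, Dusp1, Ddit4, Cdkn1a and Cebpd, which are also given with other lists, so the lists are not separate counts. The rest were Mt2, a metallothionein, at 1.53, Sgk1 at 1.20, Per1, a clock gene, at 1.09 and Tsc22d3, the glucocorticoid-induced leucine zipper, at 1.04. Fkbp5, another classical target, was at -0.56, and the receptor gene Nr3c1 at 0.03. Growth-arrest genes had 22 of 25 above 0, with Trp53inp1 at 1.55, Gadd45a at 1.54, Btg2 at 1.54 and Cdkn1a, the inhibitor p21, at 1.45; Fbxo32, a FOXO target that encodes the ligase atrogin, was at 2.00. In the hypoxia list 22 of 23 were above 0 and 8 passed 2-fold, with Stc1, stanniocalcin, at 1.99, Ddit4, which restrains mTORC1, at 1.501, Bnip3, of mitophagy, at 1.33, Ndrg1 at 1.30, Car9, carbonic anhydrase, at 1.13 and Vegfa at 1.07. Glycolysis genes, many of which respond to hypoxia, lay around 0, with a median of -0.02, and Pfkfb3 was the highest at 0.88. None of 20 passed 2-fold, where 4.12% of all genes were higher. The core of the hypoxia response element, ACGTG on either strand, was in 15 of 17 promoters of the list (88.2%) against 29.9% of all.

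The Bnip3 promoter is printed as the example of that list, the 150 bases before its start at chr7:138909507-138909656 on the minus strand, from the same RefSeq table; the capitals are 2 overlapping matches, 1 on each strand.
Bnip3: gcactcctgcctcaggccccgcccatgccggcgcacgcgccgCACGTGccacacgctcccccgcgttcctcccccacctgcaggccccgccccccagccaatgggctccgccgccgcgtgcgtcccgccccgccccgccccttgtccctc

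On the lower side, replication-dependent histones lay farthest from 0 as a family. Of 66 genes 63 were lower by 2-fold and 65 were below 0, with a median of -1.69; in the SCID pool against the line the median was -1.60. All classes took part: the median was -1.74 for 5 genes of linker histone H1, -1.60 for 18 of H2A, -1.60 for 18 of H2B, -1.80 for 12 of H3 and -1.77 for 13 of H4. The lowest were Hist1h3g (chromosome 13, 23535418 to 23535909) at -2.09, Hist2h3c2 at -2.06, Hist1h4f at -1.98 and Hist2h4 at -1.96. The 9 replication-independent histones had a median of -0.15, and H2afx, the variant phosphorylated at DNA breaks, was lower at -1.19. Many histone genes are near copies, so the division of reads among them is uncertain. Some symbols share a position: Hist1h2bq and Hist1h2br have the same positions and values, so the 66 genes are not all separate measurements. Libraries were made from poly(A) RNA, in which messages that end in a stem-loop are recovered in part; how this bears on the values was not tested.

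Values differed by the span of the deposited transcript. By single transcripts in the authors' deposited table, 72 histone transcripts that span at most 1000 bases were all lower by 2-fold, from -2.09 to -1.14. Of the 5 that span more, 4 were not. The long transcript of Hist1h2bc, spanning 8282 bases, was at 0.66 in the authors' deposited table and its short transcript of 469 bases at -1.43. For Hist1h2be the deposited values were -0.61 and -0.55 for the long transcripts and -1.66 for the short transcript of 445 bases. Hist2h2be, with a single transcript spanning 2667 bases, was at 0.16, and the long non-coding transcript of Hist1h2al, of 2983 bases, was at -1.73. The split at 1000 bases was chosen after the values were seen. Because some symbols share a position, the 72 short transcripts are not all separate measurements. The histone stem-loop was sought by its 16-base consensus, which allows either pyrimidine or either purine at set places, and it was found in the GENCODE transcripts of 45 of 65 histone genes; transcript models that end with the coding sequence cannot hold it. The sites below are shown, with stem and loop in capitals, because such a message is known to end just after the loop.
Hist1h3g: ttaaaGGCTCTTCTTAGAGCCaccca
Hist1h4f: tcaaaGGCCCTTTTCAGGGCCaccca
Hist1h2be: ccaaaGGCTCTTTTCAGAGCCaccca
In Hist1h3g 47 bases and in Hist1h4f 33 bases of the model follow the loop. In Hist1h2be 1861 bases follow it. Over 1000 bases of model followed the loop in 9 genes, of which 8 were lower by 2-fold. Among them were Hist1h1d (4884 bases, -1.92) and Hist2h4 (1257 bases, -1.96). The deposited transcripts of these 8 genes span at most 1000 bases, so their values are not those of the long models. Whether the length after the loop goes with the value was therefore not tested. The letters were not found in the 2620-base model of Hist2h2be or the 1156-base model of Hist1h2bc.

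**Figure D3:**
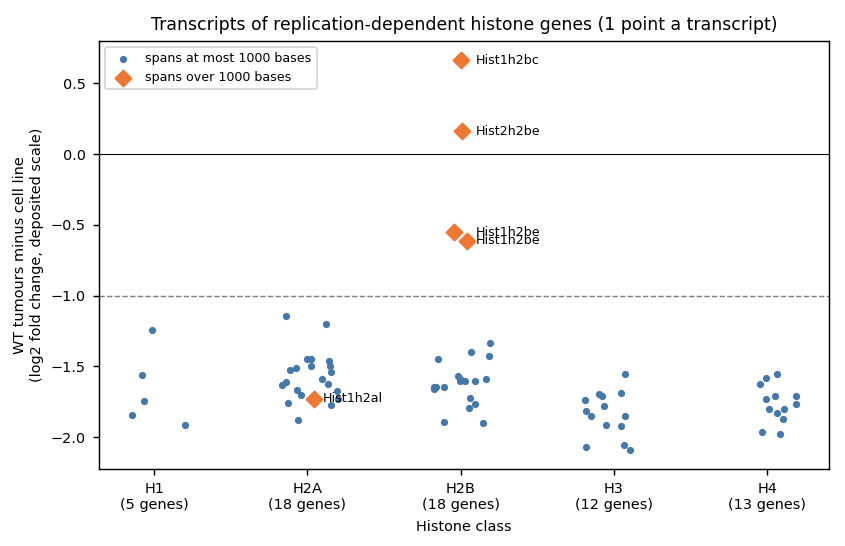
Each point is 1 transcript of a replication-dependent histone gene, by histone class, with its log2 fold change on the deposited scale; blue circles span at most 1000 bases of genome and orange diamonds more. The blue circles all lie below the dashed 2-fold line, and 4 of the 5 diamonds lie above it, all of class H2B.

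The histone clusters also showed in the genomic pattern. On chromosome 13, 57 of 485 genes (11.8%) were lower by 2-fold, and 1.39% without the histones; on the other 19 chromosomes with at least 50 genes the share lower was between 0.334% and 3.09%. There were 5 runs of 4 or more neighbouring genes that were all lower, holding 53 genes, each of them a histone, and there was no run of higher genes. Chromosome medians ranged from -0.11 to 0.04.

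Genes of cell division were lower in nearly every case. Of 67 mitotic, spindle and kinetochore genes 66 were below 0 and 40 passed 2-fold, with a median of -1.05. Ube2c, the ubiquitin-conjugating enzyme of the anaphase complex, was at -1.56, the cyclins Ccnb1 and Ccna2 at -1.53 and -1.48, and Mki67, the Ki-67 antigen, at -1.15. Pttg1, securin, was the member above 0, at 0.32, and its transcripts were at -0.04 and 0.67 in the authors' deposited table. Replication and G1/S genes were nearer to 0: 58 of 60 were below 0, with a median of -0.72, and 9 passed 2-fold, led by Rrm2, a subunit of ribonucleotide reductase, at -1.86, Prim1, of primase, at -1.27, E2f7 at -1.19 and Mcm3, of the replicative helicase, at -1.10. Among repair genes Exo1 and Fancb were at -1.32 and -1.29, with a median of -0.51 over 40. In the SCID pool against the line the mitotic median was -1.15 and that of replication -0.78.

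Mitotic promoters carried the letters of the cell cycle genes homology region and of the CCAAT box, bound by the repressor complex DREAM and by NF-Y. TTTGAA on either strand was in 38 of 57 mitotic promoters (66.7%) against 14.3% of all, and CCAAT in 41 of 57 (71.9%) against 43.5%. Mitotic genes with TTTGAA had a median of -1.04 and those without it -1.12. CCAAT was also in 51 of 60 histone promoters (85%). TTTCCCGC, an E2F site, was in 10 of 51 replication promoters (19.6%) against 2.53%. Replication genes with it had a median of -0.56 and those without it -0.77. An AP-1 site was in 1 of 20 immediate-early and 2 of 13 matrix protease promoters, against 6.18%. A PU.1 site was in 0 of 5 Fc receptor and ITAM and 1 of 3 pan-leukocyte promoters, against 3.41%. The heat shock element core was in 5 of 29 heat shock and DnaJ promoters, against 0.589%, with medians of -0.33 with it and 0.12 without. The promoter of Ube2c, the lowest mitotic gene, is printed over the 150 bases before its start at chr2:164769779-164769928, plus strand, from the RefSeq table; the capitals are 2 CCAAT boxes and TTTGAA, all on the reverse strand.
Ube2c: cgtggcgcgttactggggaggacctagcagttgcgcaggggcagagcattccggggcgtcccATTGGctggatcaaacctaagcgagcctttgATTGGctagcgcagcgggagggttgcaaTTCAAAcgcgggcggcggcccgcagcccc

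Biosynthesis genes lay below 0 in narrow bands, mostly short of 2-fold. All 78 mitochondrial ribosomal protein genes were below 0 with a median of -0.46, as were 55 of 58 ribosome biogenesis genes (median -0.54), 33 of 37 aminoacyl-tRNA synthetases (-0.40), 25 of 26 cholesterol genes (-0.40) and 74 of 77 respiratory chain subunits (-0.30) and none of them passed 2-fold. Cytosolic ribosomal proteins had a median of -0.23 over 82. With the GC and length trend removed the respiratory median was -0.11 and the cytosolic ribosomal one -0.06. Nucleotide synthesis genes had a median of -0.64, with Rrm2 and Tk1, thymidine kinase (-1.10), past 2-fold. Scd1, a fatty acid desaturase, was at -1.47, Apoc2, the cofactor of lipoprotein lipase, at -1.43, and Tfrc, the transferrin receptor that brings in iron, at -1.75.

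Serine, one-carbon and asparagine synthesis genes had a median farther below 0. Of 17 genes 15 were below 0 with a median of -0.78; Mthfd2, a mitochondrial folate enzyme, was at -1.73, Asns, asparagine synthetase, at -1.62, and Psat1, of serine synthesis, at -1.10. All 3 are known targets of the stress factor ATF4, but they are not on the ATF4 and ER stress list. That list had a median of 0.07 over 27 genes and a range of -0.81 to 1.33. With the GC and length trend removed its median was -0.013. Ppp1r15a was at 1.33 and Dnajb9 at 1.05. The list also holds genes of ER stress, and a part of ATF4 in these values was not tested. The Asns promoter is printed because it holds TGATGNAA, the C/EBP-ATF response element to which ATF4 binds, present in 1 of 13 promoters of the serine list, in 6 of 24 of the ATF4 list and in 2.60% of all. The window is the 150 bases before its start, chr6:7693210-7693359, minus strand, from the RefSeq table.
Asns: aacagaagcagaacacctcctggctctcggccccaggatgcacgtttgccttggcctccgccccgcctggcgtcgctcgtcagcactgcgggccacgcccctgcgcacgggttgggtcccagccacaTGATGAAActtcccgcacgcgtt

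Most lysosomal hydrolase genes lay above 0. Of 44 cathepsins and lysosomal hydrolases 39 were above 0 with a median of 0.39, and 7 passed 2-fold; Cd68 is on this list too, followed by the protease Ctsh and the hexosaminidase Hexa, both at 1.79, and Ctso at 1.26. The 18 genes of the vacuolar proton pump were at a median of 0.02 and none passed 2-fold, where 4.12% of all genes were higher. Of 40 autophagy genes 30 were above 0 with a median of 0.26, and Atg9b (1.70), Bnip3 and Calcoco1 (1.25) passed 2-fold.

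Epithelial identity genes lay on both sides of 0: the 32 claudin, junction and identity genes had a median of -0.12 and 3 passed 2-fold. Epcam, the epithelial adhesion molecule, was at 1.59, Cldn4, a claudin, at 1.26 and St14, matriptase, at 1.06, while E-cadherin (Cdh1) was at -0.19 and the ductal keratins Krt7 and Krt19 were at -0.99 and -0.95. Of 23 endodermal genes, Ctse, Sox9 and Onecut2 were higher at 1.28, 1.11 and 1.03, and Lgals4 and Cdx2, of intestinal differentiation, were lower at -1.46 and -1.27. Mesenchymal genes had a median of 0.67 over 14: besides Fn1 and Itga5, Zeb2 was at 1.18, Tagln at 1.09 and Sparc at 1.05, Vim was at 0.00 and Snai3 at -1.33. S100a7a, a calcium-binding protein of squamous epithelium, was the lowest gene of all at -2.44, followed by Tmigd1 at -2.23, and 9 of 10 S100 genes were below 0. Mettl7b was at -2.03, the imprinted gene Peg3 at -1.87 and the drug efflux pump Abcg2 at -1.68. The 20 genes of KPC drivers and pancreatic tumour suppressors had a median of 0.01 and none passed 2-fold; Trp53 was at -0.39 and Cdkn2a at 0.06.

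Other lists lay near 0 or were thinly measured. NRF2 and glutathione genes had a median of -0.24 over 34 with none past 2-fold, and Hmox1, haem oxygenase, was the highest at 0.91. Clock genes had a median of 0.38 over 16, with Per1 past 2-fold (6.25%, against 4.12% of all genes higher). Wnt, Notch and Hedgehog targets had a median of 0.17 over 15, and amino acid and glucose transporters -0.03 over 19, with the leucine carrier Slc43a2 at 1.59. The p53 targets had a median of 0.11 over 21, or -0.091 after the GC and length trend was removed, and 4 passed 2-fold. Of 6 acute-phase genes Cp, ceruloplasmin, was at 1.505, Il1r1 at 1.28 and Socs3, the feedback inhibitor of STAT3, at 1.15. The pericyte markers Tagln and Mylk were at 1.09 and -0.25, the acinar markers Cela1 and Bhlha15 at 0.66 and 0.59, the islet marker Mafa at 0.46, the platelet marker Itga2b at 1.00, just under the threshold, and the adipocyte and Schwann cell markers Cidec and Mbp at -0.89 and -0.51.

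Averaging over transcripts hid differences between the deposited values of a gene's transcripts. Such transcripts overlap, so how reads were divided among them is uncertain. Of 3598 genes with several transcripts 1250 had transcripts on both sides of 0, and in 262 (7.28%) the farthest transcripts were 2-fold or more apart. In the authors' deposited table Ndufv2, a respiratory subunit, had transcripts at -1.85 and 1.02, and Rgs12 at -1.54 and 0.98. For the SCID pool against the line they were at -0.74 and 0.19 for Ndufv2, and at -1.56 and 1.02 for Rgs12. Mcm7, of the replicative helicase, had transcripts at -1.07 and 0.96 in the authors' deposited table, beside -1.10 for the single value of Mcm3. Magi1, a junction scaffold, ranged from -0.66 to 1.66 over 7 transcripts there, and Zeb2 from -0.10 to 2.19 over 5.

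In 374 genes both coding and non-coding transcripts had values, and the non-coding mean was above the coding mean in 225 (60.2%), with a median difference of 0.06. A gap of 2-fold or more occurred in 14 genes, 12 of them with the non-coding side higher. In the authors' deposited table the splicing factor Srsf7 was at -1.75 on its coding and 0.69 on its non-coding transcript, and Snrnp70, of the U1 particle, at -1.02 against 1.22 and 1.36. Tubgcp4, of microtubule nucleation, was at -2.01 and -1.38 on its coding and 0.76 and 0.61 on its non-coding transcripts there. Rbmx, an RNA-binding protein, had a coding mean of -0.79 against 0.54. Coding and non-coding transcripts of these genes overlap too, so the division of reads between them is uncertain. Genes with non-coding transcripts only, 611 in number, had a median of 0.16 and 4.26% were higher by 2-fold, against 4.12% of the 11275 with a coding transcript. The nuclear RNAs Neat1 and Malat1 were at 1.57 and 1.41.

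**Figure D4:**
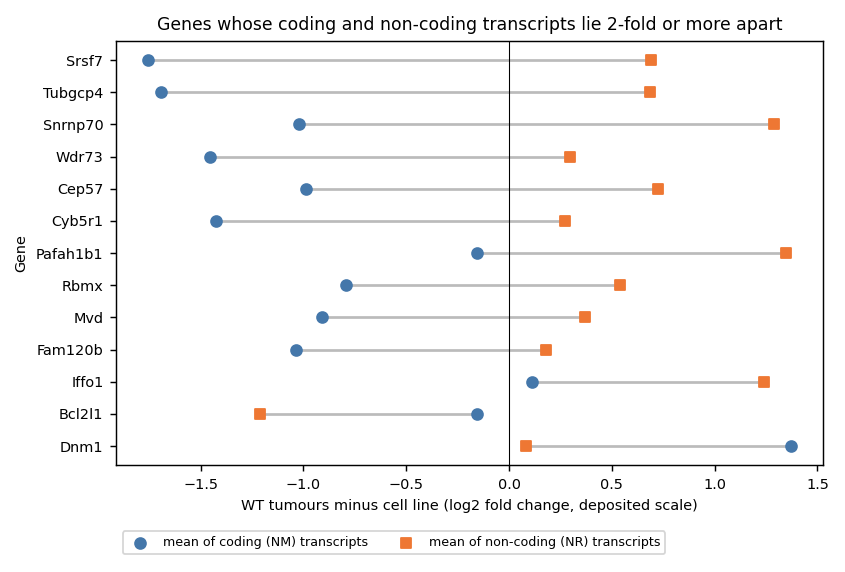
The plot shows 13 of the 14 genes whose coding (blue circles) and non-coding (orange squares) transcript means lie 2-fold or more apart, on the deposited log2 scale, WT pool minus cultured line. In 11 of those plotted the non-coding side is higher, from Srsf7 (-1.75 and 0.69) to Iffo1; in Bcl2l1 and Dnm1 the coding side is higher.

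Transcript length went with the value across genes. Among genes other than replication-dependent histones, the share higher by 2-fold was 2.71% in the shortest of 5 equal groups by spliced length and 5.86% in the longest, with medians of -0.14 and 0.10. The share that was lower stayed between 1.08% and 2.12%. By GC content, the share higher went from 2.74% in the lowest of 5 groups to 5.53% in the highest. GC content and length together accounted for 6.12% of the variance over 16747 transcripts, a description over genes that are not independent. Single-exon genes were lower in 17.6%, and in 2.13% without the histones.

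**Figure D5:**
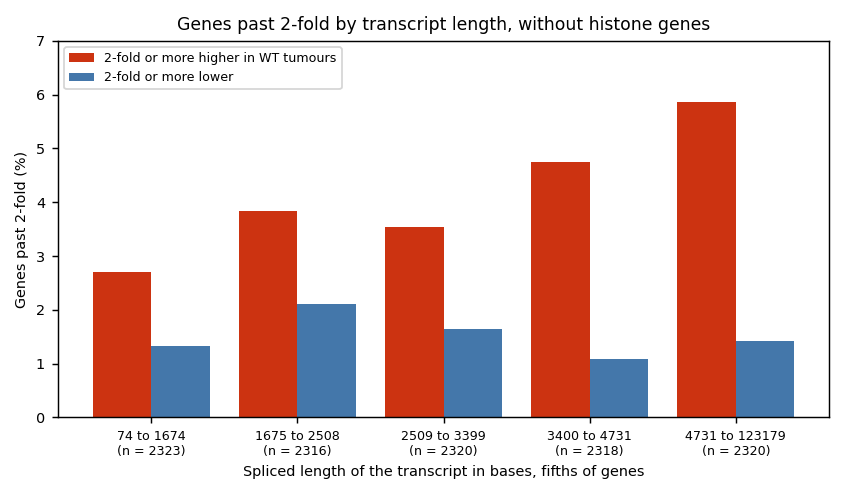
Share of genes past 2-fold in 5 equal groups by spliced transcript length in bases, without replication-dependent histones; red bars are genes higher and blue bars genes lower in the WT pool than in the cultured line. The red bars go from 2.71% in the shortest group to 5.86% in the longest.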

How the data were processed

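RNA-seq was made from 3 libraries, 1 per group, from poly(A) RNA with a stranded kit and paired reads of 75 bases, per the labels' protocols. The authors' deposited table gives log2 fold changes per RefSeq transcript; its header names no log base, and log2 was assumed from DESeq2 1.20.0, which the submitters' processing notes name beside BWA, Partek, R 3.5.1 and mm9 with no roles. Shrinkage and filters are not stated, so a fold is on the deposited scale. Of 17819 transcripts found in a RefSeq table of GRCm38.p6, 97.5% lay within their gene's span there, so positions are GRCm38.

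A gene's value is the mean over its transcripts (Python 3.11.15, pandas 2.3.3, numpy 2.4.6), and calls are at 2-fold. The table holds no counts or depth per library, so no test was made. The members and the 80 lists were chosen with earlier results of these data known, so patterns already seen give no independent support. Named genes are the 12 highest and 12 lowest, up to 4 each way past 2-fold per list (or the 2 farthest from 0), 20 fixed names of which Ptprc had no row, and others picked after their values were seen; some genes the rule names are left out of the text. GC content and length came from GENCODE vM21 for 93.5% of transcripts. List summaries and the trend removal were tested on simulated data.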

Additional observations from a re-analysis of the deposited data

Results flagged for a closer look

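H2-K1, a class I heavy chain, was at 0.75 in the WT pool minus the cultured line and at -0.46 in the SCID pool minus the line, so the hosts lay on opposite sides of 0. Some other class I heavy chains did too, nearer to 0 on the SCID side: H2-D1 at 0.81 and -0.29, H2-Q1 at 0.76 and -0.22, and H2-M3 at 0.45 and -0.085. Others lay above 0 in both contrasts: H2-T23 at 0.96 and 0.43, H2-T24 at 0.49 and 0.33, and H2-T22 at 0.32 and 0.07. Each side is 1 library, the line library is shared, and the difference was not tested.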

How the results depend on the processing

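No paired analysis was possible because each group has 1 library. Leaving out a replicate, other scalings of the libraries, pseudocounts and filters on low values were not run, since they need counts, levels or replicates. The 490 higher and 241 lower genes became 774 and 367 with each transcript counted alone, 1339 and 994 at 1.5-fold, and 26 and 5 at 4-fold. Under the other settings (median, farthest or coding transcripts, centring, GC and length trend removed, single-transcript genes, no marker genes, renamed symbols) the counts stayed within 1.5 times. Of 473 list medians under other settings 6 moved by at least the transcript SD: complement to 0.35 without its farthest member and without marker genes, chemokines to 0.12 without the farthest member, and, after the GC and length trend was removed, fibrillar collagens to 1.20, laminins to -0.0776 and matricellular genes to 1.14. Of 1033 values of 207 named genes 17 moved and 0 reversed. The p53 median, 0.11, was -0.091 after the trend was removed.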

Other observations

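In 1153 genes the WT pool and the SCID pool lay on opposite sides of 0 against the shared line. In 6 of them both values were farther from 0 than 0.31, the pooled SD between transcripts of a gene: besides H2-K1, these were Lpl, lipoprotein lipase, at 0.48 and -0.78, Hpse, heparanase, at 0.68 and -0.41, Zfp949 at 0.52 and -0.57, H2-T9 at 0.36 and -0.42, and the Y-linked gene Uty at -0.47 and 0.48. The Y-linked genes Ddx3y and Kdm5d were at -0.71 and -0.74 in the WT pool against the line, and at 0.31 and 0.15 in the SCID pool. These differences were not tested.

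Among the deposited symbols 16 are numbers, of the kind a spreadsheet makes when it reads a symbol as a date. By accession, their 39 transcripts belong to 17 septin, membrane-bound E3 ligase and amidoxime reductase genes. Marchf4, a ligase of this family, was at 1.55 and the only one past 2-fold, and Septin5 and Septin6 were at 0.78 and 0.77.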
